A study of Rattus norvegicus with 10 samples.

Results

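The genes described are those that build long polyunsaturated fatty acids and activate fatty acids and acetate to their coenzyme A esters. They comprise the desaturases Fads1 and Fads2, the elongases Elovl2 and Elovl5, the long-chain acyl-CoA synthetases Acsl1, Acsl3, Acsl4 and Acsl5, and the acetyl-CoA synthetase Acss2. Every probe set that the platform's gene table assigns to 1 of these genes alone was taken, which gave 13 probe sets of 9 genes among 31042 probe sets and 14217 genes, and 0 probe sets shared with another gene were met. The livers came from 10 male rats (Rattus norvegicus) aged 13 weeks, each measured on 1 array, and the labels name no strain. For 30 days the N-group ate a noodle diet (30 wt.% instant noodle, fat supplying 26% of the energy) with its seasonings (seasoned livers, animals 1, 4, 7, 10 and 13). The C-group received this diet with the seasonings left out (unseasoned livers, animals 2, 5, 8, 11 and 14). Feeding was paired, with about 60 g of diet per kg of body weight offered daily, so that both groups share the noodle diet and the amount of feed. The comparison asks how the seasonings bear on liver lipid metabolism.

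Mammals cannot make linoleic and alpha-linolenic acid, and the liver converts both from the diet into longer and more unsaturated fatty acids such as arachidonic and docosahexaenoic acid. Fads2 introduces the first double bond, an elongase lengthens the chain, Fads1 introduces the next double bond, and further elongation and peroxisomal shortening follow. A fatty acid enters any of these routes, or esterification or oxidation, only as an acyl-CoA, which the Acsl enzymes make, while Acss2 makes acetyl-CoA from acetate in the cytosol and nucleus. Fads1, Fads2 and Acss2 are known targets of the SREBP transcription factors, and dietary polyunsaturated fat is known to lower the desaturases.

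The deposited values split these genes into a varying and a near-constant class. Among all probe sets, 13% (4050 of 31042) had an SD over the 10 livers above 0.01 log2 units, called varying here, and the others hardly moved at all. Of the 13 probe sets, 8 varied, with SDs between 0.085 and 0.37. The other 5 were near-constant, with SDs of at most 0.00032. They include all 3 probe sets of Acsl1, the major long-chain acyl-CoA synthetase of hepatocytes (near 12.84, 12.43 and 5.77 in every liver). The others are the only probe set of Elovl2, an elongase of long polyunsaturated chains (9.28), and 1 of the 2 probe sets of Acsl5 (7.15). The largest difference of these 5 between the diets was 0.00014 in size, which has no measurable meaning. All 5 are therefore given as levels with no call in either direction. A level of 12.84 for Acsl1 lies high in the table and 9.28 for Elovl2 above the array medians of 6.47 to 6.48, yet neither gene can be compared between the diets in these values.

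**Figure D1:**
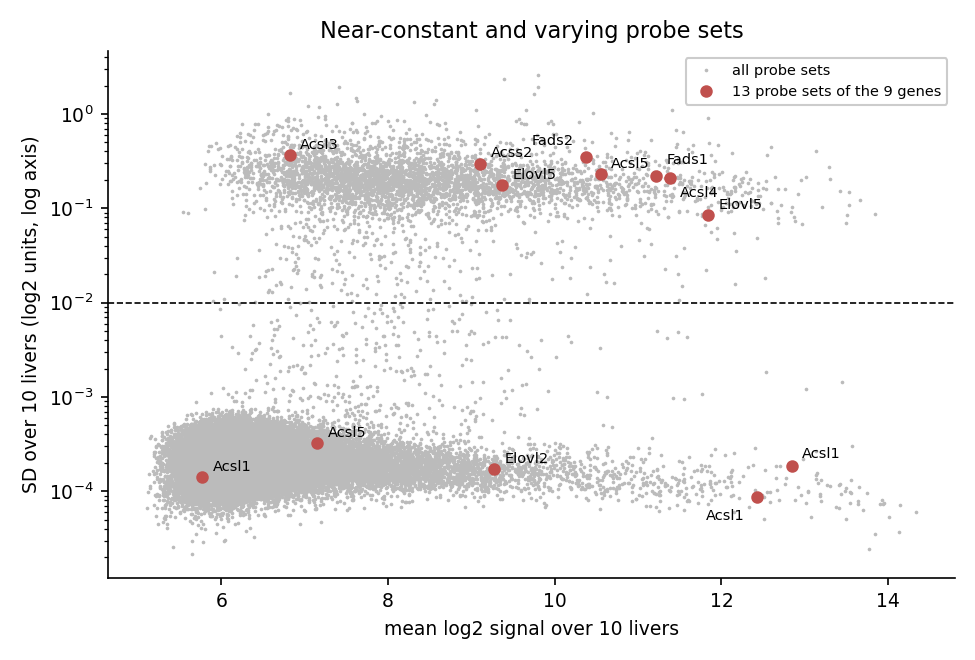
Mean log2 signal (horizontal) against the SD over the 10 livers in log2 units (vertical, log axis) for all probe sets (grey) and the 13 probe sets of the 9 genes (red). The dashed line marks an SD of 0.01, and 8 of the 13 probe sets lie above it while 5, among them all 3 of Acsl1 and the 1 of Elovl2, lie far below it.

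No gene of this group passed the test between the diets. By limma over all 31042 probe sets 0 of 13 were called at an adjusted p under 0.05 (all at 0.9997), with a background of 0% (0 of 31042). At an unadjusted p under 0.05 there was 1 of 13, Acsl3, against a background of 4.48% (1390 probe sets), and 0 of 13 had diets that did not overlap, against 0.77%. In a fit of the 4050 varying probe sets alone 13 were called (0.321%), and 0 of them belonged to the 8 varying members, whose smallest adjusted p was 0.279 for Acsl3. By the same fit 12.9% (521 of 4050) had an unadjusted p under 0.05. This is a closer background for Acsl3 than 4.48%, because most of the 31042 probe sets hardly moved. Acsl3 was there 1 of 8 varying members, which does not stand out from 12.9%. Of these 8, 5 had the higher mean in the seasoned livers and 3 in the unseasoned ones, with a median log2 difference of 0.09. Over all varying probe sets the median was 0.0079, and 53.3% had the higher mean in the seasoned livers. In tests on simulated data with this layout, 32.9% of varying probe sets shifted by 0.5 log2 units were recovered over all probe sets. In the fit of varying ones 67.1% were recovered, so changes of that size could be missed. The changed probe sets were drawn from all varying ones, some with smaller SDs than these 8 members, and 200 were changed at once. These shares may therefore overstate recovery for the members.

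The livers are labelled as such while the extraction text speaks of brain, and the 9 measured hepatocyte markers lay at or above the 98.5th percentile of all probe sets, with albumin (Alb) at 14.34. The 7 measured brain markers had a median percentile of 38.9 and a highest of 74.4. In bulk tissue, fewer cells of a type and less RNA per cell cannot be told apart. By array row all seasoned livers were in A and all unseasoned livers in B, so row and diet cannot be told apart. Values are also given within animals 1 to 7 (3 seasoned, 2 unseasoned) and animals 8 to 14 (2 seasoned, 3 unseasoned), a parting found earlier in these data and named by no label. Because the parting came from these data, the values within a set are descriptive. Whether a diet difference depends on the set was not tested.

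Fads1 and Fads2 are the 2 desaturases of the group, and their promoters are shown because their signals had the highest Pearson r of the pairs tested, which did not pass adjustment. Both lie on chromosome 1 on opposite strands. In the gene table of the GRCr8 assembly the order is Fads3, Fads2, a long non-coding RNA, a pseudogene, Fads1 and Fen1. The RefSeq sequences below run 5′ to 3′ on the strand of the gene, from 250 bases before the transcript start to 50 bases after it. Capitals mark the GC box (GGGCGG) and the CCAAT box (CCAAT), each searched on both strands.
Fads1, GRCr8 chr1:216252442-216252741, plus strand: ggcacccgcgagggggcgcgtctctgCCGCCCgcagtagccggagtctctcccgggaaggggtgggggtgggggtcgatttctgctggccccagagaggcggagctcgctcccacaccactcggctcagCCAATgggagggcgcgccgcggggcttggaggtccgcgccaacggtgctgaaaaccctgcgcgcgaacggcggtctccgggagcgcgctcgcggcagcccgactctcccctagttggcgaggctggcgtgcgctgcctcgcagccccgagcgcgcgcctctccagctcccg
Fads2, GRCr8 chr1:216171984-216172283, minus strand: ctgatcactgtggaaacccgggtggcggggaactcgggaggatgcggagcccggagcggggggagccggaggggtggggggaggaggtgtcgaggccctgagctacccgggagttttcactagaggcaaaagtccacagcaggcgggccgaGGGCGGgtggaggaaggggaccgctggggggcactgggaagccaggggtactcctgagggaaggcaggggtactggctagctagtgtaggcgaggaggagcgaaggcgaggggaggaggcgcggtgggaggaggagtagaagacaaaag
Both windows hold 1 GC box, whose first base lies at -224 from the start in Fads1 (on the reverse strand) and at -99 in Fads2. Only the Fads1 window holds a CCAAT box, at -121. GC boxes occur in 33.1% and CCAAT boxes in 37.5% of the 33469 promoter windows of this table. The SREBP motif TCACNCCAC, found in 1.12% of all windows, the E-box CACGTG (6.42%) and the nuclear receptor core motif AGGTCA (16.2%) had 0 matches in either window. All 9 genes matched the table, with 10 windows because Elovl2 has 2. Among them, 6 genes held a GC box, 5 a CCAAT box, 1 an E-box (Elovl5), and 0 the SREBP motif or the core motif. Only exact matches within these windows of 300 bases were sought. The 0 matches therefore do not show that such sites are absent elsewhere or in variant form.

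Fads2, the desaturase that opens the pathway, had log2 signals of 10.27, 10.38, 10.33, 10.53 and 10.01 in seasoned animals 1, 4, 7, 10 and 13. The unseasoned animals 2, 5, 8, 11 and 14 had 10.87, 10.78, 10.55, 9.68 and 10.39. Unseasoned animals 2, 5 and 8 lay above every seasoned liver, unseasoned animal 11 lay below every other liver, and the groups overlapped. The log2 difference, seasoned minus unseasoned, was -0.15 ± 0.22 (SE, 5 livers per diet), with a 95% interval from -0.66 to 0.36 and an exact two-sided permutation p of 0.532. Without unseasoned animal 11 it was -0.34 ± 0.13 (exact permutation p = 0.0397, adjusted p = 0.827 by limma). It shrank to -0.05 without unseasoned animal 2, -0.07 without unseasoned animal 5, -0.07 without seasoned animal 13 and -0.03 with array position as a covariate. Animals 1 to 7 alone gave -0.50 and animals 8 to 14 alone 0.06.

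Fads1, which carries out the later desaturation to arachidonic and eicosapentaenoic acid, had 11.36, 11.35, 11.14, 11.40 and 11.11 in seasoned animals 1, 4, 7, 10 and 13. In unseasoned animals 2, 5, 8, 11 and 14 it had 11.45, 11.38, 11.13, 10.72 and 11.12. Animal 11 was again the lowest liver, and the other unseasoned livers spanned about the range of the seasoned ones. The difference was 0.11 ± 0.14 (interval from -0.20 to 0.42, exact permutation p = 0.579, 5 livers per diet), 0.0020 ± 0.098 without animal 11, and 0.18 without unseasoned animal 2. With array position as a covariate it was 0.20 and with the sets of animals as a block 0.07. Animals 1 to 7 alone gave -0.13 and animals 8 to 14 alone 0.26. A 1.34-fold rise or a fall to 0.869-fold with the seasonings lay at the ends of the interval.

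Over the 10 livers, each centred on its diet's mean, Fads1 and Fads2 had a Pearson r of 0.939 (exact permutation of pairings within the diets, p = 0.00236) and a Spearman rho of 0.850 on ranks within the diets (exact permutation p = 0.00931). Adjusted over the 28 pairs of varying probe sets the values were 0.0661 and 0.130, so the relation did not pass. Over 21 pairs with 1 probe set per gene the adjusted p was 0.0496. Without unseasoned animals 11 and 2, which lay farthest from the median of Fads1, r was 0.793, and without animal 11 alone 0.842. When centred within each diet of each set of animals, r was 0.888, with an exact permutation p of 0.0694 and 0.486 after adjustment. Permuting among the few livers of each diet in each set allows far fewer pairings than permuting within the diets. A lone pair could then hardly pass adjustment over 28 pairs, so this adjusted p cannot decide whether the relation holds within the sets. Animal 11 also stood apart in Dbp, a clock-controlled transcription factor, at 7.28 against 9.08 to 9.43 in the other unseasoned livers and 5.94 to 7.05 in the seasoned ones, and the part of this in its desaturase signals was not tested.

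**Figure D2:**
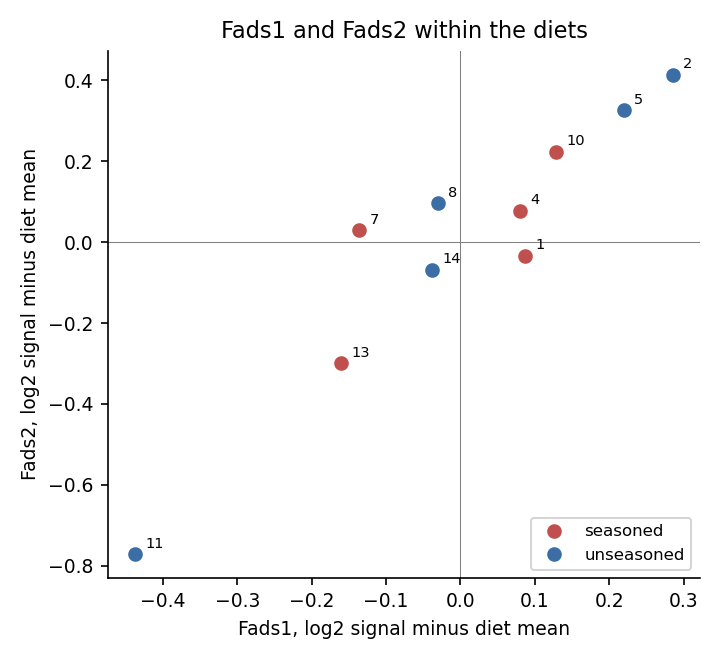
Log2 signal of Fads1 (horizontal) against Fads2 (vertical), each minus the mean of its diet, in the 10 livers, with animal numbers. Unseasoned animal 11 lies far to the lower left, animals 2 and 5 to the upper right, and r was 0.939 with it and 0.842 without it.

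The genes most like Fads2 among 2606 varying genes outside the group, by Pearson r of values centred on the diets over 10 livers, were Lipc, hepatic lipase (0.974), and C8h15orf61 (0.961). For Fads1 they were Ak3, a mitochondrial adenylate kinase (0.941), and Erlin1, an endoplasmic reticulum protein of cholesterol control (0.938). They were picked as the highest of all these genes, so no p is given.

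Elovl5, the elongase that acts between and after the desaturases, had 2 varying probe sets. On the brighter one the seasoned livers had 11.75, 11.85, 11.91, 11.83 and 12.01 and the unseasoned livers 11.92, 11.75, 11.76, 11.78 and 11.82, in the order of animals used above. Seasoned animal 13 was the highest and the groups overlapped throughout. The difference was 0.06 ± 0.05 (interval from -0.05 to 0.18, exact permutation p = 0.238, 5 livers per diet). On the dimmer one the seasoned livers ranged from 9.18 to 9.70 with a median of 9.44 and the unseasoned livers from 9.14 to 9.40 with a median of 9.38, and the difference was 0.12 ± 0.11 (exact permutation p = 0.325). The 2 probe sets gave the same sign, and their correlation over the livers did not pass adjustment (r = 0.844, exact permutation p = 0.00694, adjusted p = 0.0972 over 28 pairs, rho = 0.900 with p = 0.00431, r = 0.632 without seasoned animals 1 and 13). Without seasoned animal 13 the differences were 0.03 and 0.05. The genes most like the brighter probe set were Cxcl9, a chemokine (r = 0.913), and Odad4 (0.897).

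Acsl3, an acyl-CoA synthetase of the endoplasmic reticulum and lipid droplets, showed the largest difference of the group. It had 7.41, 7.48, 7.06, 6.76 and 6.52 in seasoned animals 1, 4, 7, 10 and 13, and 6.65, 6.51, 6.66, 6.58 and 6.56 in unseasoned animals 2, 5, 8, 11 and 14. Seasoned animals 1, 4, 7 and 10 lay above every unseasoned liver, and seasoned animal 13 lay among them. The difference was 0.46 ± 0.18 (interval from 0.04 to 0.87, or 1.03 to 1.83-fold, exact permutation p = 0.0476, 5 livers per diet), which did not pass after adjustment over all probe sets (0.9997) or over the varying ones (0.279). The unseasoned mean of 6.59 lay close to the array medians of 6.47 to 6.48, so the size of the fold is uncertain. The exact permutation p lay between 0.0556 and 0.0952 without seasoned animal 1 or 4 or without any 1 unseasoned animal. It was 0.0476 without seasoned animal 7, 0.0397 without seasoned animal 10 and 0.00794 without seasoned animal 13, where the difference was 0.59. Animal 13 was the only seasoned liver that overlapped the unseasoned ones, so leaving it out parts the groups by itself. That p is then the smallest possible for the remaining livers and adds no support. Animals 1 to 7 alone gave 0.74 and animals 8 to 14 alone 0.04, and this gap was not tested. A fit that held the 2 sets of animals as a block gave 0.39 ± 0.16 (exact permutation p = 0.07 within the sets).

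Acsl4, which prefers arachidonic acid, had 11.34, 11.65, 11.25, 11.57 and 10.88 in the seasoned livers and 11.39, 11.48, 11.43, 11.42 and 11.39 in the unseasoned ones. The unseasoned livers lay in a narrow band, with seasoned livers both above and below it. The difference was -0.08 ± 0.13 (interval from -0.39 to 0.22, exact permutation p = 0.651, 5 livers per diet), and 0.03 ± 0.08 without seasoned animal 13. The SD was 0.31 in the seasoned and 0.037 in the unseasoned livers, a ratio of 8.34. Acsl3 had a like pattern, with SDs of 0.41 and 0.062 (ratio 6.64), and Acss2 the opposite one, with 0.083 and 0.38 (4.62). An SD ratio above 4, a limit set after these values were seen, was met by 3 of 8 varying members and by 2.94% of all varying probe sets (119 of 4050). Whether the diets differ in spread was not tested.

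**Figure D3:**
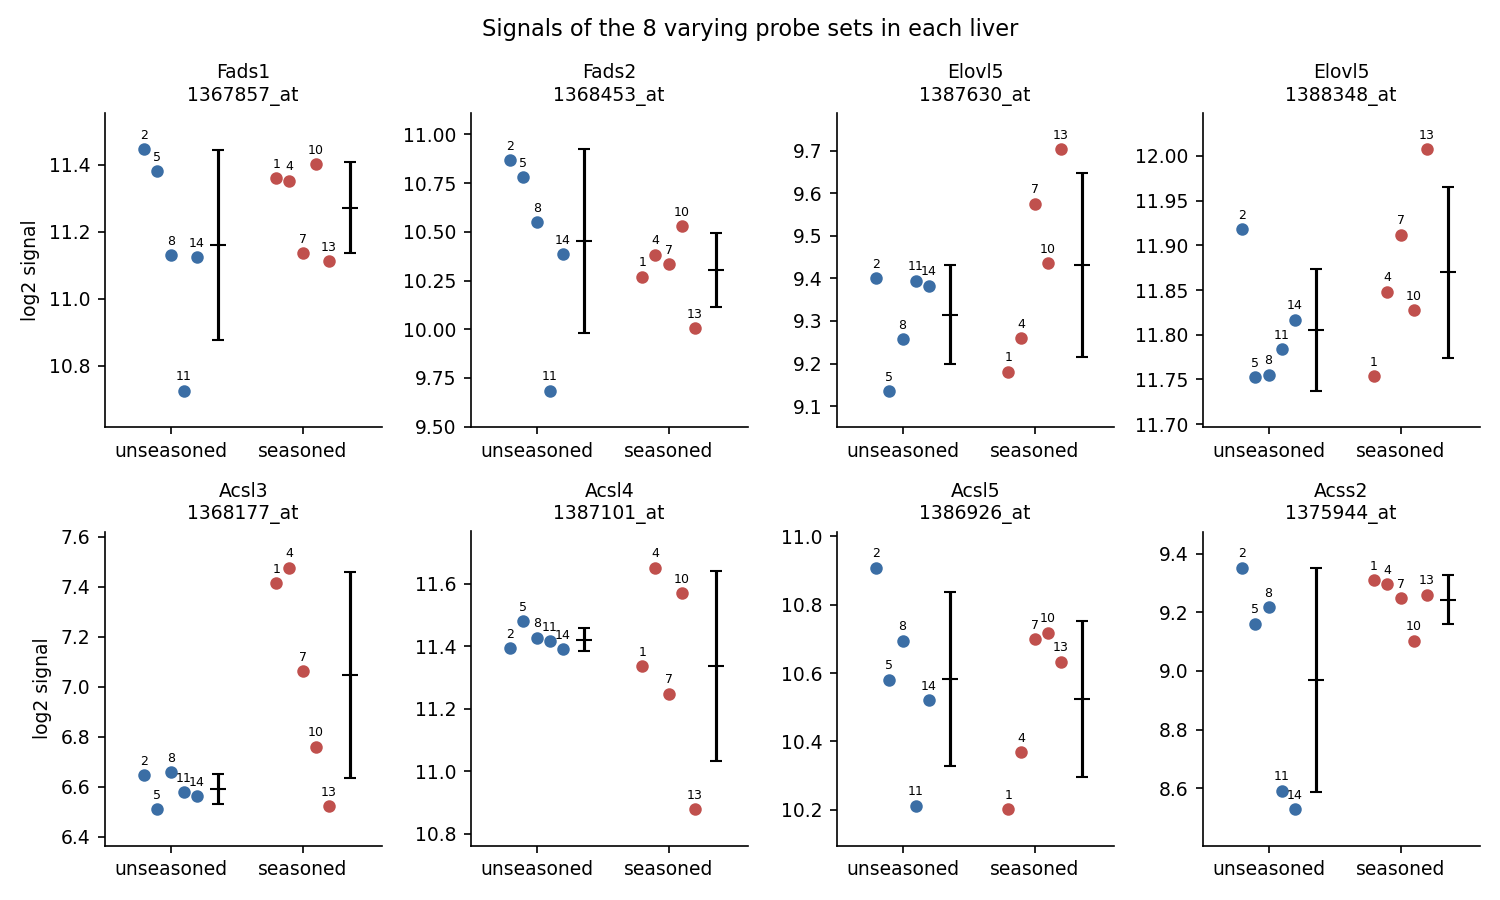
Log2 signals of the 8 varying probe sets in the unseasoned (blue) and seasoned (red) livers with animal numbers, and the mean with SD (black) beside each group of 5. Seasoned livers spread more widely for Acsl3 and Acsl4 and unseasoned livers for Acss2, and unseasoned animal 11 is lowest for Fads1 and Fads2.

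Acsl5, an acyl-CoA synthetase of mitochondria and endoplasmic reticulum, had 10.20, 10.37, 10.70, 10.72 and 10.63 in the seasoned livers and 10.91, 10.58, 10.69, 10.21 and 10.52 in the unseasoned ones on its varying probe set. Seasoned animal 1 and unseasoned animal 11 were the lowest and unseasoned animal 2 the highest. The difference was -0.06 ± 0.15 (interval from -0.40 to 0.28, exact permutation p = 0.690, 5 livers per diet). Animals 1 to 7 alone gave -0.32 and animals 8 to 14 alone 0.20. Its sign turned without seasoned animal 1 or unseasoned animal 2 (0.02 each).

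Acss2, which activates acetate, had 9.31, 9.30, 9.25, 9.10 and 9.26 in seasoned animals 1, 4, 7, 10 and 13 and 9.35, 9.16, 9.22, 8.59 and 8.53 in unseasoned animals 2, 5, 8, 11 and 14. Unseasoned animals 11 and 14 lay below all other livers, unseasoned animals 5 and 8 lay among the seasoned ones, and unseasoned animal 2 was the highest of all livers. The difference was 0.27 ± 0.17 (interval from -0.11 to 0.66, or 0.924 to 1.58-fold, exact permutation p = 0.230, 5 livers per diet). It was 0.18 without animal 11, 0.16 without animal 14 and 0.37 without animal 2 (exact permutation p = 0.0397, adjusted p = 0.959 by limma). Animals 1 to 7 alone gave 0.03 and animals 8 to 14 alone 0.40.

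**Figure D4:**
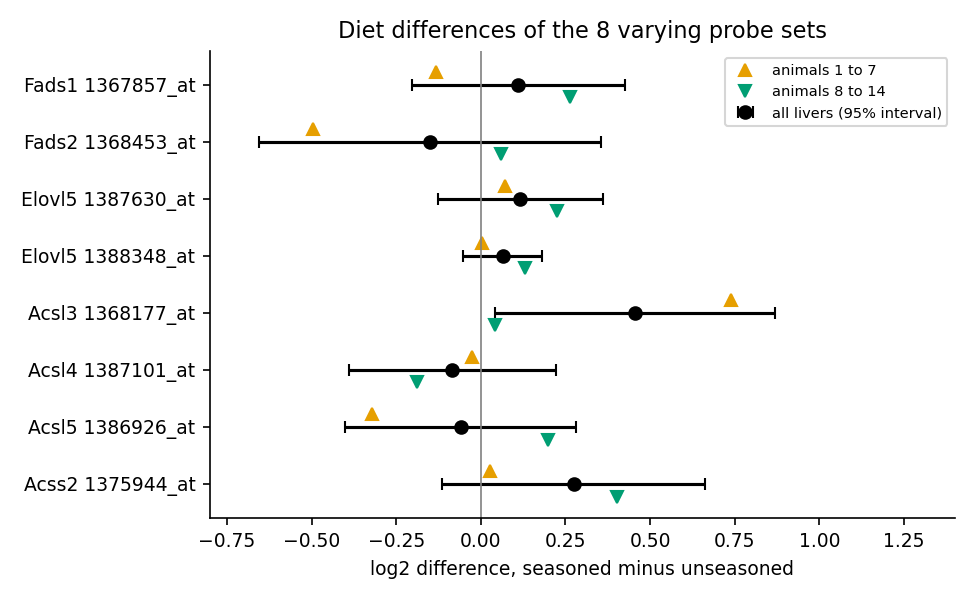
Log2 difference, seasoned minus unseasoned, of the 8 varying probe sets with the 95% interval from limma (black), and the differences within animals 1 to 7 (orange) and animals 8 to 14 (green). Only the interval of Acsl3 leaves out 0, before adjustment, and the values within the 2 sets of animals lie on opposite sides of 0 for Fads1, Fads2 and Acsl5.

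Among the 2606 varying genes outside the group, Acsl3 was most like Syne1 (r = 0.961 over 10 livers, centred on the diets) and Zfand5 (0.944), Acsl4 most like Gsta1, a glutathione transferase (0.925), and Rbms1 (0.901), Acsl5 most like Cfap20 (0.847) and Mtss1 (0.839), and Acss2 most like LOC100912143 (0.956) and Nmrk1, a nicotinamide riboside kinase (0.948). These genes, like those named for Elovl5, were picked as the highest of all compared, so no p is given. How high the largest r would run by chance was not tested. Of the 28 pairs of varying member probe sets, 0 had an adjusted p under 0.05 by the exact permutation. Fads2 and Acsl4 had an r of 0.362 (exact permutation p = 0.0474, adjusted p = 0.319 over 28 pairs, rho = 0.50 with p = 0.192, r = 0.786 without unseasoned animals 11 and 2).

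Neighbouring steps of the pathway gave 0 calls by limma as well. The lists held the desaturase and elongase partners (13 measured genes, 6 varying), other acyl-CoA synthetases and fatty acid transporters (18, 8 varying), acyl-CoA thioesterases (9, 6 varying), peroxisomal enzymes (9, 4 varying), phospholipid remodelling (17, 8 varying), coenzyme A synthesis (10, 4 varying), regulators (14, 8 varying) and lipogenic genes (9, 7 varying). At an unadjusted p under 0.05 they held 0, 1, 2, 0, 2, 0, 1 and 1 genes in that order, against 4.8% of all 14217 genes (682). For the varying genes a closer background is 12.9% (521 of 4050 probe sets), from the fit of varying probe sets alone. After adjustment 0 genes of these lists passed. The median differences of their varying members were 0.09, -0.02, 0.05, -0.05, 0.05, -0.02, 0.13 and 0.0063, beside 0.02 over all varying genes.

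Of the partners, Scd, the desaturase that makes oleic and palmitoleic acid, differed by -0.49 ± 0.24. The seasoned livers had 11.84, 12.49, 12.48, 12.08 and 12.91 and the unseasoned livers 13.24, 12.48, 13.15, 12.52 and 12.83, so they overlapped. Among the regulators, Insig2, which retains the SREBP complex in the endoplasmic reticulum, differed by 0.52 ± 0.11 without overlap (11.15 to 11.68 against 10.79 to 11.08), with adjusted p = 0.573 by limma over all probe sets and 0.0736 in the fit of varying ones. Srebf2, the SREBP of cholesterol genes, differed by 0.18 ± 0.12. Gpam, the first enzyme of glycerolipid synthesis, differed by 0.23 ± 0.05, also without overlap (6.91 to 7.12 against 6.68 to 6.89, adjusted p = 0.676), and Thrsp, a lipogenic protein, by -0.31 ± 0.29. The diets did not overlap in 2.99% of all varying probe sets (121 of 4050).

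Acsm5, a mitochondrial medium-chain acyl-CoA synthetase, had the widest spread of the lists. It had 6.53, 8.56, 9.33, 8.39 and 6.31 in seasoned animals 1, 4, 7, 10 and 13 and between 6.12 and 6.37 in the unseasoned livers. Seasoned animals 4, 7 and 10 stood far above all others and seasoned animal 13 lay among the unseasoned livers. The difference was 1.57 ± 0.58 (adjusted p = 0.998 by limma), and no fold is given because the unseasoned mean of 6.25 lay under the array medians.

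Ephx2, the soluble epoxide hydrolase that degrades epoxides of polyunsaturated fatty acids, differed by 0.22 ± 0.07 (adjusted p = 0.850 by limma). Acot3, an acyl-CoA thioesterase, differed by 0.17 ± 0.06 with overlap (adjusted p = 0.935 by limma). Its unseasoned mean of 6.46 lay just under the array medians. Ehhadh, a peroxisomal oxidation enzyme, differed by 0.17 ± 0.17. Slc27a2, a very long-chain acyl-CoA synthetase and transporter, differed by -0.11 ± 0.08, and Pank1, a pantothenate kinase, by -0.17 ± 0.13. Elovl1, Acot1, Abcd2, Lpcat1 and Ppcdc, named by the same rule, were near-constant, with differences of at most 0.00025 in size, and 2 of them, Acot1 and Lpcat1, are counted above at an unadjusted p under 0.05.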

How the data were processed

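The authors deposited a single log2 signal for each probe set on each array. How they summarised and normalized the arrays was not given in the sources used here, and the log base follows from the range of the values (4.79 to 14.34). Labelling with biotin started from 100 ng of total RNA, per the labels. Detection calls and intensities were not used here, and precision is limited by the 5 arrays per diet. After 57 controls were left out, 20826 probe sets named 1 gene, 436 several and 9780 none, and 20758 of those with 1 gene were matched to RefSeq by gene identifier. For genes outside the group the probe set with the highest mean stood for the gene.

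The diets were compared with limma 3.58.1 in R 4.3.3, two-sided and without covariates, with Benjamini-Hochberg adjustment over all probe sets, and single probe sets by exact permutation over 252 assignments (smallest possible p 0.00794, unadjusted, 13 tested). Relations used 14400 pairings permuted within the diets. Near-constant members carry no call. The titles number the animals separately, so p-values set the diet difference against the spread between rats. Any effect of array row would be part of that difference. Members, gene lists and tests were chosen with earlier results of these data known. Named were all members, the 2 genes of each list with the smallest p, and the 2 genes most like each varying member. Dbp and Alb were named outside this rule. Fits were tested on simulated data (200 varying probe sets changed). Alternatives covered filters on flat and dim probe sets, 1 probe set per gene, repeated quantile normalization, median centring, variance models, array weights, animal number, array position, an assumed pairing, the animal-number sets, and each liver left out. The fits of varying probe sets with a block or with a liver left out, and the alternatives of the permutation test and of the Fads1 and Fads2 relation, were added after seeing the data.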

Additional observations from a re-analysis of the deposited data

Results flagged for a closer look

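Each diet's 5 livers were examined for 29 probe sets, or 58 groups. In 4 of them the highest or lowest liver was separated from the next one by more than 0.71 of the whole range, and chance alone does this in about 1 of 20. Seasoned animal 13 was low for the brightest, near-constant probe set of Acsl1 (ratio 0.8214). Seasoned animal 7 was high for Lpcat1 (0.8416) and unseasoned animal 14 low for Ppcdc (0.8423), both near-constant as well. In these 3 the gap was under 0.001 log2 units and has no measurable size. Unseasoned animal 2 was high for Thrsp, at 12.50 against 11.71 in the next liver (0.8295).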

How the results depend on the processing

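No member was called under any alternative run, with or without the near-constant probe sets. All 8 varying members kept their sign except Acsl4 without seasoned animal 13 (0.0301) and Acsl5 without seasoned animal 1 (0.0212) or unseasoned animal 2 (0.0217), over all probe sets and over varying ones alike. With 1 liver left out their values ran from -0.163 to 0.0301 for Acsl4 and from -0.152 to 0.0217 for Acsl5. Of the near-constant members, Elovl2 kept its sign in 20 alternatives, and the second Acsl1 probe set turned in 1 of 19. The brightest and dimmest Acsl1 probe sets turned in 6 of 20 and 4 of 18, and that of Acsl5 in 6 of 19. Repeated quantile normalization gave 0.0207, 0.0270 and 0.000105 for the brightest, second and dimmest Acsl1 probe sets. Apart from 0.0207 and 0.0270, the turned values had no measurable size. Array weights gave 2.2e-05 for the brightest of Acsl1 and -7.02e-05 for the near-constant Acsl5 probe set, array position as a covariate 6.7e-05 and -0.000116 for these, and the animal-number block 1.79e-05 for the dimmest of Acsl1. With 1 liver left out the brightest ran from -9.85e-05 to 4.24e-05, the dimmest from -7.81e-05 to 2.87e-05 and that of Acsl5 from -0.000112 to 0.000114. Over all probe sets the count of calls was 0, but 13 with varying ones only, and it ran from 0 to 10 with 1 liver left out, the 10 without unseasoned animal 11. Among varying probe sets it was 22 with the animal-number sets as a block and 0 to 84 with 1 liver left out, namely 84 without unseasoned animal 11, 21 without seasoned animal 10, 18 without unseasoned animal 2, 8 without seasoned animal 13, 3 and 2 without unseasoned animals 5 and 8, and 0 without seasoned animals 1, 4 or 7 or unseasoned animal 14. The count of members with an exact permutation p under 0.05 was 1, 0 with the animal-number sets as a block, and 0 to 1 with 1 liver left out. It named Acss2 without unseasoned animal 2, Fads2 without unseasoned animal 11 and Acsl3 in its other cases. For Acss2 and Fads2 the liver left out was the unseasoned one that lay most against the direction of the difference. The Fads1 and Fads2 correlation ran from 0.842 to 0.976 with 1 liver left out, and passed adjustment without seasoned animal 1 (0.957) or 7, after repeated quantile normalization (0.933, adjusted p = 0.0185) and with 1 probe set per gene (0.939, adjusted p = 0.0496). The cause of these shifts was not tested. With array position as a covariate the difference was 0.59 ± 0.15 for Acsl3 and 0.40 ± 0.13 for Acss2 (adjusted p = 0.378 for Acsl3 and 0.507 for Acss2 by limma). No paired analysis was possible because the diets share no animal number. With neighbouring numbers assumed as pairs, Acsl3 differed by 0.46 ± 0.18 (adjusted p = 0.921 by limma) and 0 members were called.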

Other observations

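The difference between the Fads1 and Fads2 signals within a liver was looked at after the values had been seen, because the 2 signals had the highest Pearson r of the pairs tested, which did not pass adjustment. Neither diet difference (0.11 ± 0.14 and -0.15 ± 0.22, SE) could be told apart from 0. Fads1 minus Fads2 was 1.09, 0.97, 0.80, 0.87 and 1.11 log2 units in seasoned animals 1, 4, 7, 10 and 13. It was 0.58, 0.60, 0.58, 1.04 and 0.74 in unseasoned animals 2, 5, 8, 11 and 14. All unseasoned livers except animal 11 lay below every seasoned liver. The mean was 0.97 ± 0.13 (SD, 5 livers) in seasoned and 0.71 ± 0.20 in unseasoned livers, a difference of 0.26, or 0.34 without animal 11. Animal 11 was the only unseasoned liver that overlapped the seasoned ones. Leaving it out therefore parts the groups by itself, and the larger value adds no support. The measure joins 2 probes with unknown and unequal response and was formed from these data, so no test is given.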
